A study of Homo sapiens with 7 samples.

Results

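The genes described here encode the non-collagen part of the extracellular matrix: structural glycoproteins, proteoglycans, the enzymes that make hyaluronan and the lysyl oxidases that cross-link collagen and elastin. They were chosen by symbol and number 38 among the 28517 entries that the deposited tables list: 6 glycoproteins of fibres and microfibrils, 7 matricellular glycoproteins, 10 basement membrane glycoproteins, 8 proteoglycans, 2 hyaluronan synthases and 5 lysyl oxidases. The values are RPKM, counts scaled to the gene's length and to the library's total. A mean of at least 0.5 RPKM over the control and ARID1A-/- libraries was reached by 26 of the 38, which were tested, and 12 stayed below it. The libraries came from NGP, a MYCN-amplified human neuroblastoma cell line, and from lines of it with mutations in ARID1A, which encodes a subunit of the BAF chromatin remodelling complex. Control cells, ARID1A-/- line 1 and ARID1A-/- line 2 had 2 libraries each, and an ARID1A+/- line had 1. Ribosomal RNA was removed with the SMARTer Universal Low Input kit for 1 library of the control and of each ARID1A-/- line, and with the KAPA mRNA HyperPrep kit for the other 4, per the labels' protocols. All groups grew in the same serum-containing medium with puromycin. The question the series poses is whether cells that lose ARID1A pass from the adrenergic to the mesenchymal state of neuroblastoma.

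The matrix is built outside the cell from fibres, from sheets called basement membranes and from a hydrated gel of proteoglycans and hyaluronan. Laminins, trimers of an alpha, a beta and a gamma chain, join with nidogens and perlecan into the basement membrane, while fibronectin and the fibrillins form fibres and microfibrils in the space between cells. In neuroblastoma, fibronectin and other interstitial matrix genes are commonly counted among the genes of the mesenchymal state, and lysyl oxidases stiffen the matrix by oxidising lysines of collagen and elastin.

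Library totals lay between 24445301 and 43644361 counts, and the 38 genes took between 0.127% and 0.256% of it. ARID1A itself stood at 22.3 and 22 RPKM in the control libraries, SMARTer first and KAPA second, at 16.7 and 17.2 for line 1, at 14.2 and 13.8 for line 2 and at 19.9 for the ARID1A+/- library. Its RNA was thus present in every library, and counts over the whole gene do not test a mutation that leaves the RNA in place. Of the neuroblastoma markers, HAND2 lay between 276 and 349 RPKM, GATA3 between 70.8 and 154 and MYCN between 606 and 3663, while TH stayed at or below 0.456. The 10 fibroblast markers summed to 98.9 to 99.8 RPKM for the control, 203 to 227 for line 1, 55.2 to 58.8 for line 2 and 97.3 for the ARID1A+/- library. COL1A1 was the highest of them outside the ARID1A+/- library: 60.2 and 62.6 RPKM for the control, 156 and 171 for line 1, 30.3 and 19.9 for line 2 and 17.1 for the ARID1A+/- library. COL3A1 stood at 1.52 and 1.6 RPKM for the control, 6.24 and 7.8 for line 1, 1.53 and 1.27 for line 2 and 6.48 for the ARID1A+/- library, where PDGFRA (32.7) and PDGFRB (14) were above all other libraries. Of the 10, 5 were tested: over both lines 1 rose (COL3A1) and 1 fell (PDGFRB). Line 1 alone had 2 that rose (COL1A1 and COL3A1) and 0 that fell, line 2 alone 0 that rose and 2 that fell (COL1A1 and PDGFRB). FAP was at 0 counts in all 7 libraries, and COL1A2 and PDPN stayed at or below 0.0336 and 0.0677 RPKM. Schwann cell markers, 8 in all of which 2 were tested and fell, summed to 34.6 to 52.7 RPKM for the control, 7.34 to 11.7 for line 1, 1.85 to 3.82 for line 2 and 30.5 for the ARID1A+/- library, with SOX10 at or below 0.0381. Of 12 neuroblastoma markers 11 were tested, and over both lines 3 rose and 1 fell. In line 1 alone 3 rose and 1 fell, and in line 2 alone 1 rose and 1 fell. The 12 summed to 2107 to 4870 RPKM in the control, 2210 to 2741 in line 1, 1690 to 3728 in line 2 and 1673 in the ARID1A+/- library. MYCN was the highest of them in each library, so the sum follows MYCN more than the other markers. Of 6 endothelial, 6 immune and 7 epithelial markers 0, 2 and 2 were tested and none passed over both lines. The part of these marker lists in the matrix results was not tested. Nothing in the labels tells if both libraries of a line stem from separate cultures, so the spread behind the p-values may be technical only. The labels also do not state how the mutations were made or whether a line is a single clone, and with 1 control line the genotype cannot be told apart from other differences between lines. In bulk RNA, fewer cells of a type and less RNA per cell cannot be told apart.

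Matrix genes moved in both directions in the ARID1A-/- lines. Over the mean of both lines against the control, 7 of the 26 tested genes rose and 11 fell, by edgeR's quasi-likelihood test with Benjamini-Hochberg adjustment over all 14711 tested genes and a threshold of 0.05. Of all tested genes 14.2% passed, 4.64% higher and 9.57% lower, and the 18 of 26 are given as a count only, since the genes were chosen with results of these data known. The genes that rose were FN1, THBS1, LAMB2, DCN, LUM, VCAN and HAS2, and those that fell were TNC, THBS3, LAMA1, LAMA5, NID1, NID2, BGN, AGRN, LOX, LOXL1 and LOXL3. The median log2 fold change of the 26 was -0.05, against 0.02 for all tested genes, and its median size without sign was 1.08 against 0.23. Single values ran from -5.46 for LOX to 4.38 for DCN. In line 1 alone 8 rose and 9 fell, where 13% of all genes passed (4.75% higher, 8.27% lower), and in line 2 alone 6 rose and 9 fell, where 14% passed (5.47% higher, 8.52% lower). Both lines are compared with the same 2 control libraries. The 4 ARID1A-/- libraries did not overlap the 2 control libraries for 14 of the 26 genes, 7 higher and 7 lower, against 21.8% of all tested genes (10.2% higher, 11.6% lower). DCN, THBS1 and HAS2 passed the filter only through the ARID1A-/- libraries, with control means of 0.167, 0.276 and 0.389 RPKM, and LOX and TNC only through the control, with means of 0.413 and 0.266 over the 4 ARID1A-/- libraries. These 5 had to differ in level to be tested. All 5 are among the 18 calls and among the 14 genes without overlap, and the 14 were not recounted without them. Of the 21 genes that reached the filter in both groups of libraries, 4 rose and 9 fell over both lines, where 12.6% of all 14057 such genes passed; this recount was chosen after the values were seen. Leaving out 1 library at a time, dropping the kit from the model and changing the scaling, filter or test left 9 of the 18 calls in place in every such fit that tested them (a filter at 1 RPKM leaves out TNC): FN1, TNC, LAMA5, NID1, DCN, LUM, HAS2, LOX and LOXL1. The same fits left 7 of 17 calls in line 1 (FN1, TNC, LAMA5, NID1, LUM, HAS2 and LOX) and 7 of 15 in line 2 (FN1, LAMA5, NID1, DCN, HAS2, LOX and LOXL1).

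**Figure D1:**
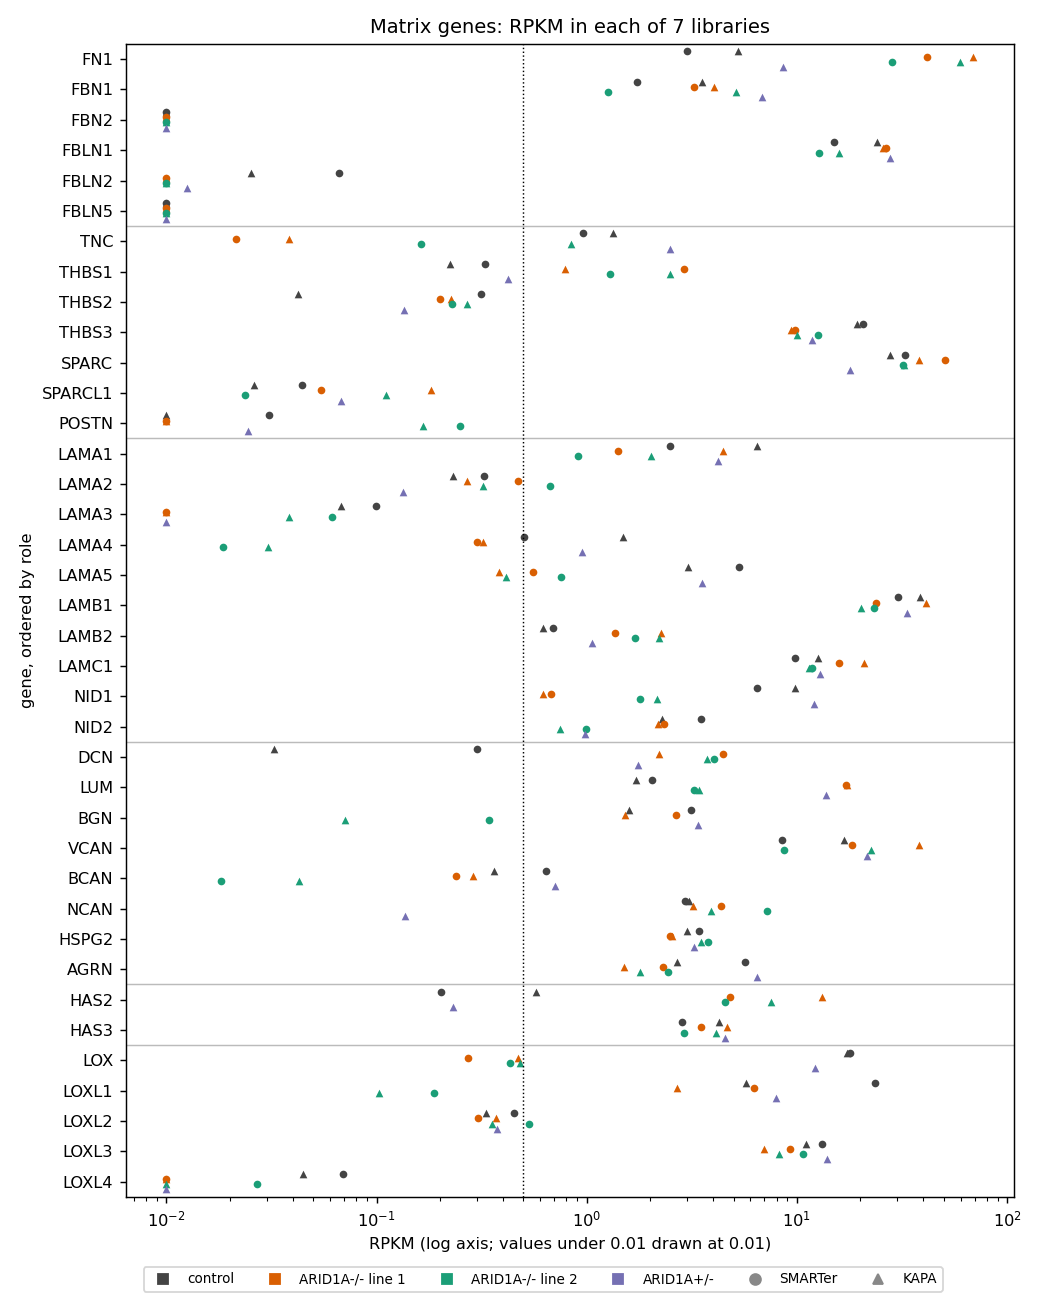
RPKM of the 38 matrix genes (log axis, values under 0.01 drawn at 0.01) in each of the 7 libraries, coloured by group, with circles for SMARTer and triangles for KAPA; the dotted line is the mean RPKM of 0.5 used as the filter. FN1 and HAS2 sit to the right of the control in all 4 ARID1A-/- libraries, and LOX, LAMA5 and NID1 to the left.

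**Figure D2:**
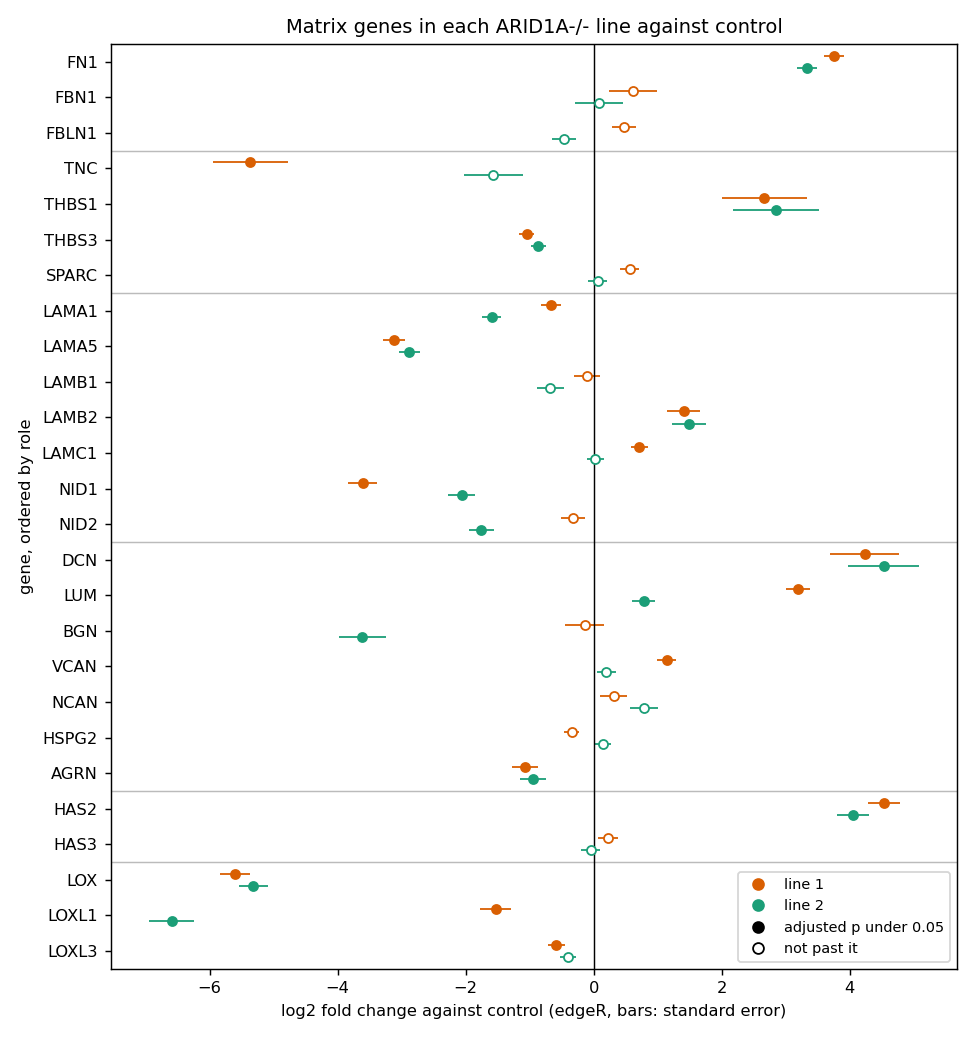
Log2 fold change against the control (edgeR) of the 26 tested matrix genes in ARID1A-/- line 1 and line 2, with the standard error as a bar; filled points passed an adjusted p of 0.05. LOX lies at -5.60 and -5.32, while LOXL1, LUM, TNC and BGN lie far apart between the lines.

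The 6 smallest adjusted p over both lines belonged to LOX, FN1, LAMA5, HAS2, LOXL1 and NID1, of which FN1 and HAS2 rose and the others fell. RefSeq's promoter table for GRCh38.p14 holds 31 of the 38 genes; AGRN, DCN, HAS2, LAMA1, LOXL2, LUM and NCAN are the other 7. For the 5 of the 6 that it holds, the 250 bases before the first listed start are printed 5′ to 3′ on the gene's strand, to show the sequence next to the start of the genes with the smallest p; capitals mark a matched motif. The stretch of LOX is chr5:122078260-122078509 (minus strand), with 55.2% G or C. The stretch of FN1 is chr2:215436069-215436318 (minus strand), with 76.4% G or C. The stretch of LAMA5 is chr20:62367313-62367562 (minus strand), with 82.8% G or C. The stretch of LOXL1 is chr15:73926212-73926461 (plus strand), with 66.8% G or C. The stretch of NID1 is chr1:236065091-236065340 (minus strand), with 76.4% G or C.
LOX: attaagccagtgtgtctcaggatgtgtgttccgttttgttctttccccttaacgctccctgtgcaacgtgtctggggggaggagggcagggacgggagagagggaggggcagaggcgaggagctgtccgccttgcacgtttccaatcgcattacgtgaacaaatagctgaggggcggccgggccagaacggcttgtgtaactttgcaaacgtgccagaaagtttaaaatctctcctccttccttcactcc
FN1: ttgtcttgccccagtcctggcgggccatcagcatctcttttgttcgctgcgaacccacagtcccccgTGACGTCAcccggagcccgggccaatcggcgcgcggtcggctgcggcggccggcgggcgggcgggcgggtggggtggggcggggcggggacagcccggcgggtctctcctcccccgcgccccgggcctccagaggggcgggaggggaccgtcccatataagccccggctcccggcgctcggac
LAMA5: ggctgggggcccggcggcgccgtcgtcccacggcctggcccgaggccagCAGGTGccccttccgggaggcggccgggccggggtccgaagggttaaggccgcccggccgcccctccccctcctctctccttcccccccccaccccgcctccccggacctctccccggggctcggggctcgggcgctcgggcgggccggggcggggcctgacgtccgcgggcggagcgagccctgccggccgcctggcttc
LOXL1: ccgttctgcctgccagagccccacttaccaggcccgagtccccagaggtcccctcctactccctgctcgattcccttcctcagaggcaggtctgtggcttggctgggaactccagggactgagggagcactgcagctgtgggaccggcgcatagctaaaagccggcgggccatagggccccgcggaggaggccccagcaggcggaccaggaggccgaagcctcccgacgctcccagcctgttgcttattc
NID1: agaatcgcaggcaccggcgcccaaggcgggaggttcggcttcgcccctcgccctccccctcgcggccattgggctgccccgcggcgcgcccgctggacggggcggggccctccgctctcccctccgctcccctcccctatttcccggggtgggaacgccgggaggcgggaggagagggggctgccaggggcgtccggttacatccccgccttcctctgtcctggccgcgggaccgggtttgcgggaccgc
Both strands were searched for AP-1 (TGANTCA), the cAMP response element (TGACGTCA), the TEAD motif (GGAATG), an E-box (CAGGTG) and the TATA box (TATAAA); none of these motifs lies within another. Of 34943 promoters of the same length, 6.59%, 1.63%, 11.9%, 17.5% and 10.8% held them. FN1, which rose, held the response element 183 bases before its start, and LAMA5, which fell, an E-box 201 bases before its start. The printed stretches of LOX, LOXL1 and NID1 held none of the 5; LOX has 3 listed starts, and the windows of the other two share an E-box, 97 and 146 bases before the start. Over the 31 genes, AP-1 was in 2, the response element in 1, TEAD in 6, the E-box in 6 and TATA in 4. A match describes the letters and is not a binding site, and no binding was measured here.

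Among the glycoproteins of fibres and microfibrils, 3 of 6 were tested and 1 rose, FN1. FN1 encodes fibronectin, which cells assemble into fibrils through their integrins. It stood at 3.01 and 5.27 RPKM in the control, 41.5 and 68.9 in line 1 and 28.2 and 59.4 in line 2, so that the lowest ARID1A-/- library was above the highest control library. The log2 fold change was 3.54 ± 0.15 over both lines (SE; edgeR adjusted p = 0.0001), 3.76 ± 0.16 in line 1 and 3.33 ± 0.16 in line 2. Within a kit the log2 ratio to the control was 3.81 and 3.70 in line 1 and 3.16 and 3.49 in line 2, SMARTer first. In both ARID1A-/- KAPA libraries FN1 had the highest RPKM of the 38 genes, a place held by LAMB1 in the KAPA control. FBN1, fibrillin-1 of the microfibrils, stood at 1.73 and 3.54 RPKM in the control, 3.25 and 4.05 in line 1 and 1.26 and 5.15 in line 2; the groups overlapped and it did not pass the test (0.35 ± 0.33 (adjusted p = 0.522)). FBLN1, fibulin-1 of elastic fibres and basement membranes, stood at 15 and 24 RPKM in the control, 26.6 and 25.6 in line 1 and 12.7 and 15.9 in line 2. Its mean over both lines gave 0.00 ± 0.16, with 0.47 ± 0.19 in line 1 and -0.46 ± 0.18 in line 2, neither past the threshold. The difference between the lines did pass (0.93 ± 0.19 (adjusted p = 0.023)), and was lost without either library of line 2 (adjusted p = 0.129 without SMARTer and 0.095 without KAPA).

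Of the 7 matricellular glycoproteins, which signal to cells more than they build structure, 4 were tested, 1 rose and 2 fell. TNC encodes tenascin-C, an anti-adhesive protein of remodelling tissue. TNC stood at 0.955 and 1.33 RPKM in the control, 0.0214 and 0.0383 in line 1 and 0.163 and 0.84 in line 2. Both line 1 libraries rested on few reads, 8 and 11 counts, and the KAPA library of line 2 came close to the control. The log2 fold change over both lines was -3.47 ± 0.41 (adjusted p = 0.00308), and it was -5.36 ± 0.59 (adjusted p = 0.00297) in line 1; line 2 did not pass at -1.57 ± 0.46 (adjusted p = 0.069). The lines differed by -3.80 ± 0.59 (adjusted p = 0.010). Over both lines the value was -2.78 without the SMARTer and -4.23 without the KAPA control library. The line 1 value of TNC was -4.66 and -6.12 in these fits. Over all alternative fits TNC ran from -4.23 to -0.80 over both lines and from -6.12 to -1.05 in line 1. In line 2 it did pass with DESeq2, in the fit without the filter on RPKM and in some fits without 1 library. It did not pass there in 8 of 13 alternative fits, with values from -2.58 to -0.55. The difference between the lines was -4.52 without the SMARTer and -2.69 without the KAPA library of line 2. THBS3, a thrombospondin of connective tissue, stood at 20.5 and 19.2 RPKM in the control, 9.75 and 9.41 in line 1 and 12.6 and 9.97 in line 2, all 4 ARID1A-/- libraries below both controls. It fell by 0.95 ± 0.10 on the log2 scale (adjusted p = 0.00204), and without the SMARTer control library its adjusted p was 0.050; its line 2 call was lost there (0.072), without the KAPA control (0.065) and without the KAPA library of line 2 (0.069). THBS1, thrombospondin-1, binds cell surfaces and activates latent TGF-beta. It stood at 0.33 and 0.223 RPKM in the control, 2.91 and 0.789 in line 1 and 1.29 and 2.48 in line 2: every ARID1A-/- library was higher, but the libraries of a line differed widely. The log2 fold change was 2.75 ± 0.62 (adjusted p = 0.032) over both lines, 2.67 ± 0.66 in line 1 and 2.84 ± 0.67 in line 2, the largest standard errors of the 26 genes over these 3 comparisons. Its call over both lines was lost without the SMARTer (adjusted p = 0.245) or the KAPA control library (0.188) and with limma on log2(RPKM + 1) (0.082), and the line 1 value was 1.24 without the SMARTer library of that line (0.130). The line 2 value was 1.55 without its KAPA library (0.127) and 3.90 without its SMARTer library. In line 1 it was 3.54 without the KAPA library of that line, and over both lines 1.93 without the SMARTer library of line 1 and 2.06 without the KAPA library of line 2. SPARC, a collagen-binding glycoprotein, had the highest RPKM of the 38 genes in each SMARTer library. It stood at 32.6 and 27.7 RPKM in the control, 50.9 and 38.2 in line 1 and 32 and 32.4 in line 2 and did not pass over both lines (0.32 ± 0.13 (adjusted p = 0.164)).

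The basement membrane glycoproteins were 10 genes, 7 of them tested, of which 1 rose and 4 fell over both lines. Laminin alpha chains carry the domains that bind cell receptors, and a trimer holds 1 of them. LAMA5 stood at 5.32 and 3.02 RPKM in the control, 0.554 and 0.385 in line 1 and 0.752 and 0.415 in line 2, with no overlap. Its log2 fold change was -3.0 ± 0.13 over both lines (edgeR adjusted p = 0.0001), -3.12 ± 0.17 in line 1 and -2.88 ± 0.17 in line 2. LAMA1, the alpha chain of the early embryo's laminin, stood at 2.48 and 6.48 RPKM in the control, 1.41 and 4.47 in line 1 and 0.912 and 2.03 in line 2. The kits differed here about as much as the groups: the KAPA library of line 1 was above the SMARTer control. Within a kit the log2 ratios were -0.79 and -0.55 in line 1 and -1.51 and -1.68 in line 2, and the fitted change was -1.13 ± 0.13 (adjusted p = 0.00238), -0.66 ± 0.15 in line 1 and -1.59 ± 0.15 in line 2. Without the SMARTer control library the adjusted p of LAMA1 was 0.061, and without the kit in the model 0.332; its line 1 call was also lost without the KAPA control (0.192) and without the SMARTer library of line 1 (0.117). Line 1 minus line 2 came to 0.93 ± 0.15 (adjusted p = 0.012), a call lost without the KAPA library of line 2 (0.099). Summed over LAMA1 to LAMA5, the alpha chains came to 8.73 and 11.3 RPKM for the control, 2.74 and 5.44 for line 1, 2.42 and 2.83 for line 2 and 8.82 for the ARID1A+/- library. LAMA5 made up 61.0% and 26.7% of that sum in the control, 20.2% and 7.06% in line 1 and 31.1% and 14.7% in line 2. The sum is thus lower in each ARID1A-/- library than in both controls, while the share of LAMA5 differs between the kits as well.

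Of the beta and gamma chains, only LAMB2 passed the test over both lines. LAMB1 stood at 30.2 and 38.7 RPKM in the control, 23.9 and 41.1 in line 1 and 23.3 and 20.2 in line 2, and did not pass the test (-0.39 ± 0.17 (adjusted p = 0.190)). LAMC1, the gamma chain shared by most laminins, stood at 9.75 and 12.7 RPKM in the control, 15.8 and 20.8 in line 1 and 11.7 and 11.4 in line 2. It rose in line 1 (0.71 ± 0.13 (adjusted p = 0.018)) but did not pass over both lines (0.37 ± 0.12 (adjusted p = 0.083)), and the lines differed by 0.69 ± 0.13 (adjusted p = 0.020). The line 1 call was lost without the SMARTer (0.180) or the KAPA control (0.080), and the difference between lines without the KAPA library of line 2 (0.186), all as adjusted p. LAMB2, the beta chain of neuromuscular and kidney basement membranes, was low: 0.694 and 0.62 RPKM in the control, 1.36 and 2.26 in line 1 and 1.69 and 2.2 in line 2, all 4 ARID1A-/- libraries above both controls. It rose by 1.45 ± 0.24 (adjusted p = 0.011) on the log2 scale, a call lost without the SMARTer (0.054) or the KAPA control (0.109), as were its calls in line 1 (0.059 and 0.138) and line 2 (0.052 and 0.103). Nidogens link the laminin and collagen IV networks. NID1 stood at 6.48 and 9.81 RPKM in the control, 0.678 and 0.619 in line 1 and 1.79 and 2.16 in line 2, with line 1 lowest in both kits. It fell by 2.83 ± 0.17 over both lines (adjusted p = 0.00025), with -3.60 ± 0.23 in line 1, -2.06 ± 0.21 in line 2 and a difference between lines of -1.54 ± 0.22 (adjusted p = 0.00727). NID2 stood at 3.48 and 2.28 RPKM in the control, 2.33 and 2.17 in line 1 and 0.992 and 0.746 in line 2, so that here line 2 was the lowest. Its change was -1.04 ± 0.16 (adjusted p = 0.00822) over both lines, -1.76 ± 0.19 (adjusted p = 0.00284) in line 2 and -0.32 ± 0.19 (adjusted p = 0.298), not past the threshold, in line 1; the lines differed by 1.43 ± 0.19 (adjusted p = 0.00649). Without the SMARTer control library the adjusted p of NID2 was 0.171 over both lines and 0.052 in line 2.

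**Figure D3:**
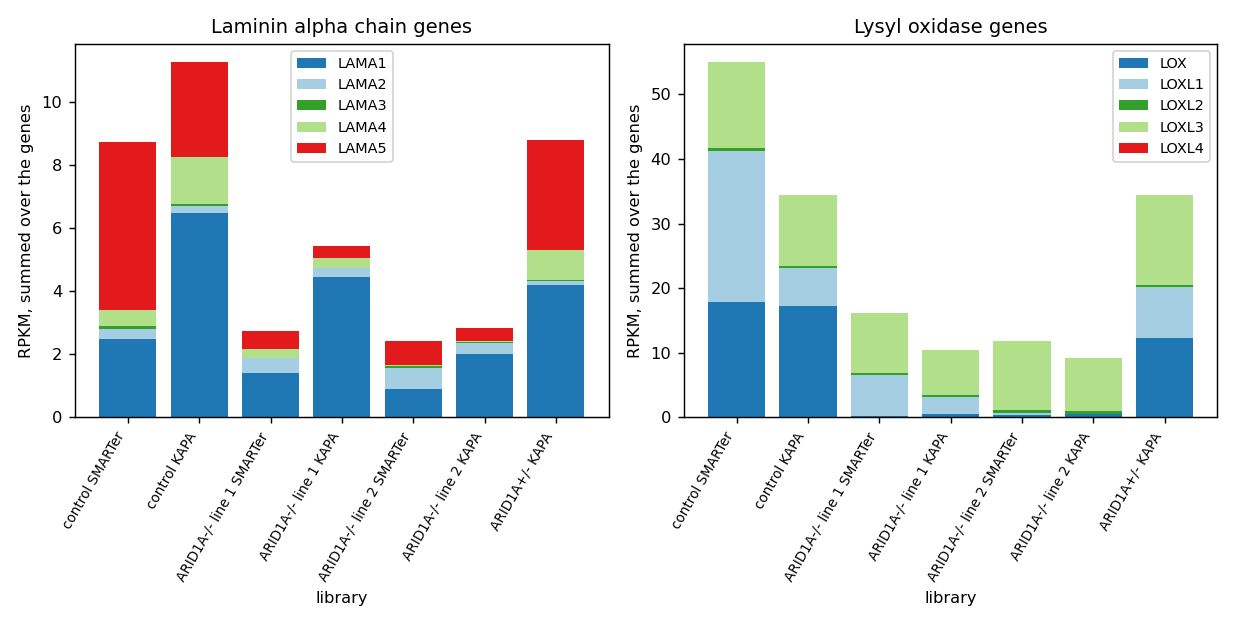
RPKM of the 5 laminin alpha chain genes (left) and the 5 lysyl oxidase genes (right), stacked, in each of the 7 libraries. Both stacks are lower in the 4 ARID1A-/- libraries than in the controls, and LOXL3 makes up 57.8% or more of the lysyl oxidase stack there.

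Of the 8 proteoglycans, 7 were tested, 3 rose and 2 fell over both lines. Decorin (DCN), lumican (LUM) and biglycan (BGN) are small leucine-rich proteoglycans that bind collagen fibrils; LUM and DCN are neighbouring genes on the genome. DCN stood at 0.301 and 0.0326 RPKM in the control, 4.44 and 2.21 in line 1 and 4.02 and 3.74 in line 2. The control values were 33 and 2 counts, so its fold change rests on a control near nothing. DCN rose by 4.38 ± 0.52 (adjusted p = 0.00305) on the log2 scale, and by 6.39 without the SMARTer control library, which leaves the 2 counts as the control. By line the values were 4.23 ± 0.54 in line 1 and 4.53 ± 0.55 in line 2. Without the SMARTer control they were 6.26 and 6.51, and the line 2 value was 5.35 without the SMARTer library of that line and 3.93 without the KAPA control. LUM stood at 2.04 and 1.72 RPKM in the control, 17.1 and 17.3 in line 1 and 3.25 and 3.42 in line 2; line 2 lay between the control and line 1 and overlapped neither. LUM rose by 3.20 ± 0.19 (adjusted p = 0.00043) in line 1 and by 0.78 ± 0.18 (adjusted p = 0.035) in line 2, and the difference between them was 2.41 ± 0.18 (adjusted p = 0.00095). Its line 2 call was lost without either control library (0.151 and 0.223) and without either library of line 2 (0.089 and 0.225), as adjusted p. BGN went the other way: 3.14 and 1.59 RPKM in the control, 2.67 and 1.53 in line 1 and 0.342 and 0.0708 in line 2, of which only line 2 stood apart from the control in both kits. BGN fell in line 2 by 3.61 ± 0.37 on the log2 scale (adjusted p = 0.00226) and gave -0.14 ± 0.31 (adjusted p = 0.802) in line 1, with a difference between lines of 3.47 ± 0.37 (adjusted p = 0.00294). The mean over both lines, -1.87 ± 0.28 (adjusted p = 0.00719), joins these unlike values, and its call was lost without the SMARTer (0.108) or the KAPA control (0.079). Without the SMARTer library of line 2 its values were -4.52 in line 2 and 4.38 for line 1 minus line 2; the KAPA library of line 2 held 5 counts.

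VCAN encodes versican, a large chondroitin sulfate proteoglycan that binds hyaluronan. It stood at 8.5 and 16.8 RPKM in the control, 18.2 and 38.1 in line 1 and 8.71 and 22.5 in line 2, with KAPA libraries near to or above 2 times the SMARTer ones. VCAN rose in line 1 (1.14 ± 0.15 (adjusted p = 0.00536)) and not past the threshold in line 2 (0.20 ± 0.15 (adjusted p = 0.418)), and the lines differed by 0.95 ± 0.15 (adjusted p = 0.010). Over both lines it gave 0.67 ± 0.13 (adjusted p = 0.020), lost without the SMARTer control (0.115), the KAPA control (0.189), the KAPA library of line 2 (0.067) or the kit term (0.491). The line 1 call was lost without the KAPA control (0.053), and the difference between lines without the SMARTer library of line 2 (0.101). NCAN, neurocan of the nervous system's matrix, stood at 2.95 and 3.07 RPKM in the control, 4.38 and 3.21 in line 1 and 7.18 and 3.9 in line 2; all 4 ARID1A-/- libraries were higher, and it did not pass (0.55 ± 0.19 (adjusted p = 0.110)). Perlecan (HSPG2) and agrin (AGRN) are heparan sulfate proteoglycans of basement membranes. AGRN stood at 5.66 and 2.67 RPKM in the control, 2.31 and 1.5 in line 1 and 2.42 and 1.8 in line 2, all 4 below both controls. AGRN fell by 1.01 ± 0.17 on the log2 scale (adjusted p = 0.012), a call lost without the SMARTer control (0.196). Its line 1 call was lost there too (0.188), and its line 2 call there (0.236) and without the SMARTer library of line 2 (0.158). HSPG2 stood at 3.42 and 3.01 RPKM in the control, 2.49 and 2.55 in line 1 and 3.8 and 3.49 in line 2 and did not pass against the control (-0.10 ± 0.11 (adjusted p = 0.584)). The lines differed by -0.49 ± 0.12 (adjusted p = 0.049), a call lost on leaving out any of the 6 libraries in turn, at adjusted p from 0.054 to 0.245.

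The 2 hyaluronan synthases, membrane enzymes that extrude hyaluronan, were both tested and 1 rose. HAS2 stood at 0.203 and 0.575 RPKM in the control, 4.82 and 13.2 in line 1 and 4.56 and 7.57 in line 2, with every ARID1A-/- library above both controls. The control values rest on 29 and 46 counts. The log2 fold change was 4.30 ± 0.24 (adjusted p = 0.00021) over both lines, 4.54 ± 0.26 in line 1 and 4.06 ± 0.25 in line 2, and within a kit the log2 ratios were 4.57 and 4.5 in line 1 and 4.40 and 3.70 in line 2. HAS3 stood at 2.85 and 4.26 RPKM in the control, 3.51 and 4.64 in line 1 and 2.89 and 4.13 in line 2 and gave 0.09 ± 0.13 (adjusted p = 0.718), so the groups overlapped. Exons of HAS2 and of HAS2-AS1 on the opposite strand share 201 bases in GENCODE 29, and the strand of counting is not given in the sources used here. HAS2-AS1 stood at 0.010 and 0.143 RPKM in the control, 0.972 and 1.5 in line 1 and 0.945 and 1.51 in line 2 (4.27 ± 0.55 (adjusted p = 0.00439)), so reads of the 2 genes cannot be fully told apart. HAS2-AS1 passed the filter only through the ARID1A-/- libraries (control mean 0.0766 RPKM), so it had to differ in level to be tested. HAS3 shares 365 exon bases with CHTF8 on the opposite strand, so its level is uncertain in the same way. CHTF8 stood at 34.2 and 45.8 RPKM in the control, 42.1 and 52.1 in line 1 and 32.9 and 45.9 in line 2.

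Of the 5 lysyl oxidases, 3 were tested and all 3 fell over both lines. LOX, the founding member, stood at 17.9 and 17.3 RPKM in the control, 0.273 and 0.469 in line 1 and 0.43 and 0.479 in line 2, the latter 4 libraries holding 62 to 96 counts against 4279 and 2321 in the control. Over both lines it fell by 5.46 ± 0.17 in log2 (edgeR adjusted p = 6e-05), the lowest fold change of the 26, with -5.60 ± 0.23 in line 1 and -5.32 ± 0.23 in line 2. The difference between the lines was -0.28 ± 0.23 (adjusted p = 0.486). LOXL1, which is known for its part in elastic fibres, stood at 23.4 and 5.75 RPKM in the control, 6.22 and 2.68 in line 1 and 0.187 and 0.103 in line 2. The SMARTer library of line 1 was higher than the KAPA control, so the line 1 libraries overlap the controls, while both libraries of line 2, at 18 and 7 counts, lie below all others. Within a kit the log2 ratio to the control was -1.89 and -1.11 in line 1 and -7.00 and -5.71 in line 2. LOXL1 fell in line 1 (-1.53 ± 0.25 (adjusted p = 0.011)) and in line 2 (-6.59 ± 0.35 (adjusted p = 0.00032)), and line 1 minus line 2 came to 5.06 ± 0.35 (adjusted p = 0.00079). The line 1 call was lost without the SMARTer control (0.182), and with limma on log2(RPKM + 1) (0.077). LOXL1-AS1, whose exons share 232 bases with LOXL1 on the opposite strand, stood at 6.9 and 4.57 RPKM in the control, 2.72 and 1.8 in line 1 and 0.475 and 0.292 in line 2, so the pair is uncertain in the same way.

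LOXL3 changed least of the tested lysyl oxidases: 13.2 and 11 RPKM in the control, 9.32 and 6.93 in line 1 and 10.7 and 8.23 in line 2, with all 4 ARID1A-/- libraries below both controls. It fell by 0.49 ± 0.11 on the log2 scale (adjusted p = 0.033), a call lost without either control library (0.197 and 0.284) or either library of line 2 (0.086 and 0.095). In line 1 it gave -0.58 ± 0.13 (adjusted p = 0.035), lost in 5 of the 6 fits without a library, and in line 2 -0.40 ± 0.13 (adjusted p = 0.092). HTRA2, which shares 625 exon bases with LOXL3, gave -0.11 ± 0.12 and did not pass. Summed over the 5 genes, lysyl oxidase RPKM came to 55.1 and 34.5 for the control, 16.1 and 10.5 for line 1, 11.9 and 9.17 for line 2 and 34.4 for the ARID1A+/- library. LOX made up 32.5% and 50.2% of the sum in the control, 1.69% and 4.48% in line 1 and 3.61% and 5.23% in line 2. LOXL3 took 24.0% and 32.0% in the control, 57.8% and 66.2% in line 1 and 90.1% and 89.8% in line 2, so that most lysyl oxidase RNA left in the ARID1A-/- libraries was LOXL3.

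The 12 genes under the filter were FBN2, FBLN2, FBLN5, THBS2, SPARCL1, POSTN, LAMA2, LAMA3, LAMA4, BCAN, LOXL2 and LOXL4. LAMA4 had the most counts where it was high: 174 and 289 for the control, 98 and 81 for line 1, 6 and 7 for line 2 and 249 for the ARID1A+/- library. BCAN, brevican of the brain's matrix, had 113 and 36 for the control, 40 and 37 for line 1, 3 and 5 for line 2 and 94 for the ARID1A+/- library. In both genes the libraries of line 2 were the lowest. LAMA3, an alpha chain of epithelial basement membranes, had 47 and 18 for the control, 4 and 1 for line 1, 27 and 12 for line 2 and 2 for the ARID1A+/- library, and here line 1 was the lowest of the ARID1A-/- lines. POSTN, periostin, had 5 and 0 for the control, 0 and 0 for line 1, 38 and 18 for line 2 and 3 for the ARID1A+/- library, so that it was detected mainly in line 2. In a fit without the filter, edgeR gave -3.34 ± 0.34 (adjusted p = 0.00011) for LAMA4, -2.50 ± 0.41 (adjusted p = 0.00250) for BCAN and -2.23 ± 0.47 (adjusted p = 0.00984) for LAMA3 over both lines. By line in that fit, BCAN did not pass in line 1 (-0.90 ± 0.43 (adjusted p = 0.232)). LAMA3 did not pass in line 2 (-0.77 ± 0.49 (adjusted p = 0.378)). Without the filter none of the other 9 passed over both lines, and POSTN passed against the control in line 2 (3.55 ± 0.86 (adjusted p = 0.026)). LAMA2 had between 0.232 and 0.671 RPKM in the control and ARID1A-/- libraries, LOXL2 between 0.304 and 0.528 and THBS2 between 0.0423 and 0.316. FBN2 had 1 count in all 7 libraries together, and FBLN5, FBLN2, LOXL4 and SPARCL1 had at most 1, 14, 11 and 18 counts in any library. A count of 0 allows up to 3 counts, which for 1 kb of gene is between 0.0687 and 0.123 RPKM at these depths. Such floors and the intervals given here cover counting error only.

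The ARID1A-/- lines differed from each other in 11 of the 26 genes, where 12.8% of all tested genes passed (5.71% higher and 7.1% lower in line 1): 8 were higher in line 1 and 3 in line 2. Those higher in line 1 were FBLN1, LAMA1, LAMC1, NID2, LUM, BGN, VCAN and LOXL1, and those higher in line 2 were TNC, NID1 and HSPG2. The calls of NID1 and LUM held in every alternative fit, including the one without the kit term. LOXL1 showed the widest gap, at 5.06 ± 0.35, followed in size by TNC at -3.80 ± 0.59 and BGN at 3.47 ± 0.37. These calls were lost without the kit term, at edgeR adjusted p = 0.052 for LOXL1, 0.059 for TNC and 0.088 for BGN. That of TNC was also lost with limma on log2(RPKM + 1) (0.153) and on log2(RPKM + 0.1) (0.069). FN1 (0.43 ± 0.14 (adjusted p = 0.109)), HAS2 (0.48 ± 0.21 (adjusted p = 0.188)), LOX (-0.28 ± 0.23 (adjusted p = 0.486)) and LAMA5 (-0.24 ± 0.16 (adjusted p = 0.395)) did not pass this test, which does not show that the lines are alike in them. Summed over all 38 genes, RPKM came to 219 and 225 for the control, 258 and 315 for line 1, 180 and 226 for line 2 and 235 for the ARID1A+/- library. Line 1 was above the control in both kits, and line 2 was below it with SMARTer and at about its level with KAPA.

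The ARID1A+/- line has a single library, so it was set beside the KAPA control with no test, and differences of more than 2-fold are described. At a mean of 0.5 RPKM or more in that pair, 26 of the 38 genes were compared. They are not the same 26 as those tested above: LAMA4 and BCAN entered, and THBS1 and HAS2 dropped out. Of them, 4 were higher and 2 lower by more than 2-fold, against 9.88% of all compared genes (4.46% higher, 5.42% lower). DCN passed this filter only through the ARID1A+/- library and NCAN only through the control. Both had to differ in level to be compared, and both are among the genes past 2-fold. The median ratio of the 26 was 1.20, against 0.976 for all compared genes. LUM stood at 13.7 RPKM against 1.72 in the KAPA control, a ratio of 7.98 (95% counting interval 6.42 to 10.0), and lay closer to line 1 (17.3) than to line 2 (3.42). DCN stood at 1.75 RPKM, a ratio of 53.7 (95% counting interval 14.6 to 447) that rests on 2 control counts. BGN gave a ratio of 2.13 (95% counting interval 1.68 to 2.72) and AGRN of 2.43 (95% counting interval 2.19 to 2.69). AGRN was lower in both ARID1A-/- lines, while BGN fell in line 2 and gave -0.14 ± 0.31 in line 1. NCAN was the lowest, at 0.136 RPKM against 3.07, a ratio of 0.0444 (95% counting interval 0.0303 to 0.0631); in the ARID1A-/- KAPA libraries it stood at 3.21 and 3.90. NID2 gave 0.432 (95% counting interval 0.364 to 0.512). Genes that fell by more than 4-fold over the ARID1A-/- lines were within 2-fold of the control in this library: LOX at 12.2 RPKM against 17.3, LAMA5 at 3.52 against 3.02, NID1 at 12 against 9.81, LOXL1 at 7.98 against 5.75 and TNC at 2.48 against 1.33. FN1 stood at 8.6 against 5.27, a ratio of 1.63 (95% counting interval 1.54 to 1.73), where the ARID1A-/- KAPA libraries stood at 68.9 and 59.4. HAS2, under the filter of this pair, had 25 counts against 46 in the control, a ratio of 0.402 (95% counting interval 0.237 to 0.668). The intervals hold counting error alone, and the spread between ARID1A+/- cultures is unknown.

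**Figure D4:**
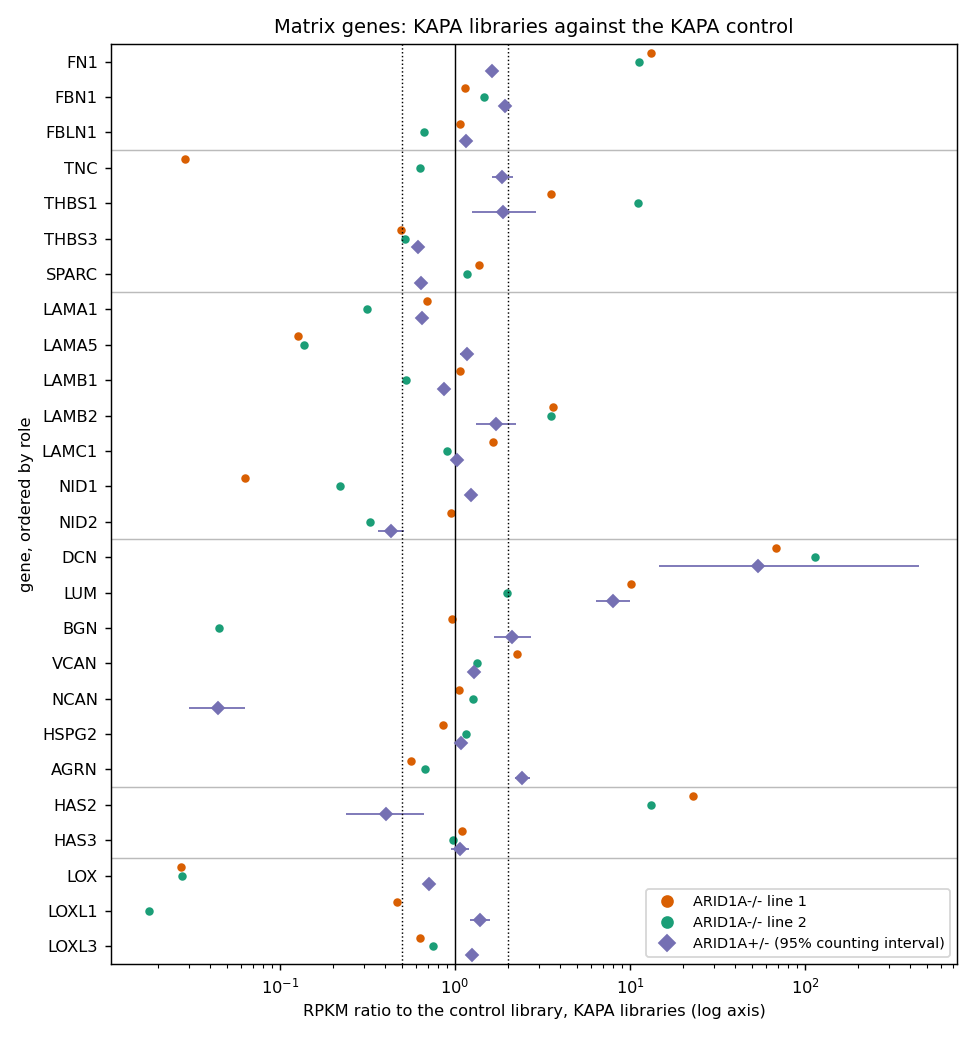
Ratio of RPKM to the KAPA control (log axis) for the 26 tested genes in the KAPA libraries of line 1, line 2 and the ARID1A+/- line; bars are 95% counting intervals for the ARID1A+/- library, and dotted lines mark 2-fold. LOX, LAMA5 and NID1 are far to the left in both ARID1A-/- lines and near 1 in the ARID1A+/- library, and NCAN is far to the left in the ARID1A+/- library alone.

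The libraries of the 2 kits differed in several of these genes, and the kit cannot be told apart from anything else that differed between those sets of libraries. Of the 26, 4 were higher and 5 lower in KAPA than in SMARTer libraries at an edgeR adjusted p under 0.05, where 13.3% of all tested genes passed (5.3% higher, 7.99% lower). FN1 (0.70), LAMA1 (1.23), VCAN (0.97) and HAS2 (1.01) were higher in KAPA on the log2 scale. LAMA5 (-0.91), BGN (-1.29), AGRN (-0.89), LOXL1 (-1.74) and LOXL3 (-0.53) were lower. The kit was balanced over the 3 groups of the test, and the changes above are within kits.

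Other genes of the matrix were taken as 4 lists, with calls over both lines set against the background of 14.2%. The lists of glycoproteins and of proteoglycans had calls in both directions, and the other lists in a single direction. Of 46 other matrix glycoproteins, 20 were tested, 3 rose and 4 fell, with a median log2 fold change of 0.07. EDIL3, an integrin ligand, stood at 16.8 and 13.7 RPKM in the control, 0.0126 and 0.0245 in line 1 and 0.345 and 0.297 in line 2 and fell by 7.63 ± 0.19 on the log2 scale (adjusted p = 1.5e-05). NPNT, nephronectin of basement membranes, stood at 1.53 and 1.64 RPKM in the control and 0.327 and 0.256 in line 2 and had no count in line 1. Of 36 other proteoglycans and genes of hyaluronan handling, 20 were tested, 2 rose and 6 fell, with a median of -0.17. PTPRZ1, a receptor phosphatase that carries chondroitin sulfate, stood at 2.16 and 2.87 RPKM in the control and 0.367 and 0.581 in line 2 and had no count in line 1. The glypican GPC5 rose (2.52 ± 0.26 (adjusted p = 0.00179)) and its relative GPC1 fell (-1.05 ± 0.12 (adjusted p = 0.00265)), a call of GPC1 that was lost without the SMARTer control (0.072). The calls of GPC5 were lost without the kit term, at adjusted p = 0.131 over both lines, 0.116 in line 1 and 0.240 in line 2. GPC5 passed the filter only through the ARID1A-/- libraries (control mean 0.457 RPKM), and EDIL3, NPNT and PTPRZ1 only through the control. Of 18 collagen-modifying enzymes and transglutaminases, 10 were tested and 1 rose, with a median of 0.10. That gene was PCOLCE, an enhancer of procollagen processing (0.84 ± 0.12 (adjusted p = 0.00699)), whose call was lost without the SMARTer (0.054) or the KAPA control (0.084). Of 42 matrix proteases and inhibitors, 20 were tested and 5 fell, with a median of -0.18. ADAMTS20, a secreted metalloprotease, gave -3.66 ± 0.34 (adjusted p = 0.00122) over both lines and -6.40 ± 0.51 in line 1, and did not pass in line 2 (-0.92 ± 0.35 (adjusted p = 0.135)). Over both lines it was -4.37 without the KAPA library of line 1, and in line 1 it was -5.57 without the SMARTer and -7.81 without the KAPA library of that line. TIMP1, a metalloprotease inhibitor, stood at 5.57 and 4.36 RPKM in the control, 9.65 and 7.5 in line 1 and 0.012 and 0.187 in line 2, so that line 2 alone stood below the control. Its mean over both lines, -2.52 ± 0.45 (adjusted p = 0.015), did not pass without the SMARTer (0.209) or the KAPA control (0.086), without the kit term (0.055) or with DESeq2 (0.096), and was -1.87 without the SMARTer and -3.97 without the KAPA library of line 2.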

How the data were processed

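RNA was sequenced in 7 libraries as single-end reads of 75 bp, per the labels' protocols. Alignment used HISAT2 2.1.0 and hg19, as the submitters' processing notes list them; which program counted the reads, with which annotation and strand setting, is not given in the sources used here. In each file, per its header, the authors deposited for each library a whole-number count, a gene length and an RPKM value for 28517 entries; the deposited RPKM equals the count divided by that length and the library's total to within 0.000501%. The labels name polyadenylated RNA as the molecule and removal of ribosomal RNA in the protocol, so the selection of RNA is uncertain.

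Counts were tested with edgeR 4.0.16 (quasi-likelihood F test, TMM scaling with full library totals, R 4.3.3) in 1 model of the 6 control and ARID1A-/- libraries with terms for group and kit, which left 2 residual degrees of freedom. The filter was a mean of 0.5 RPKM, which kept 14711 entries; p-values were adjusted by Benjamini-Hochberg over these and called under 0.05. Standard errors were derived from the fitted log2 fold change and its F statistic. Libraries were paired by kit, which the labels name: the KAPA minus SMARTer differences in log2(RPKM + 1) correlated at 0.51, 0.63 and 0.45 between the groups over the 14711 genes. Libraries of a group differed beyond sampling noise. Ratios within a kit add 0.5 counts to each library; the ARID1A+/- ratios carry exact binomial 95% intervals. Alternatives were limma 3.58.1 on log2(RPKM + 1) and log2(RPKM + 0.1), DESeq2 1.42.0, other scalings and filters, no kit term, and each library left out. The test was tried on simulated counts first. All 38 genes are accounted for, and of each list of other matrix genes at most the 4 with the smallest p were named. The 38 genes and the lists were chosen with earlier results of these data known. Some marker genes of the lists are not reported here singly. Promoters are those of RefSeq (GRCh38.p14) and exon overlaps those of GENCODE 29; no coordinate was converted to the hg19 of the counts. Figures were drawn with matplotlib 3.10.9.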

Additional observations from a re-analysis of the deposited data

Results flagged for a closer look

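Between the ARID1A-/- lines, 11 genes differed by edgeR's test of line 1 minus line 2 (adjusted p under 0.05; 12.8% of all tested genes passed), which marks them for a closer look. Of the 11, only NID1 and LUM kept the call in every alternative fit, and HSPG2 kept it in 4 of 14. The basement membrane genes among them were LAMA1 (0.93 ± 0.15 on the log2 scale), LAMC1 (0.69 ± 0.13), NID2 (1.43 ± 0.19), NID1 (-1.54 ± 0.22) and HSPG2 (-0.49 ± 0.12), of which NID1 and HSPG2 were higher in line 2. The small proteoglycans LUM (2.41 ± 0.18) and BGN (3.47 ± 0.37) and the large proteoglycan VCAN (0.95 ± 0.15) were higher in line 1. FBLN1 differed by 0.93 ± 0.19 and TNC by -3.80 ± 0.59, the latter lower in line 1. LOXL1 differed by 5.06 ± 0.35, with 18 and 7 counts in line 2 against 608 and 202 in line 1.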

How the results depend on the processing

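None of the 26 genes reversed a call in any alternative fit. The kit paired the libraries, and fewer calls were made without it: with no replicate block, that is without the kit term, 11 of the 26 genes passed over both lines, 7 in line 1, 9 in line 2 and 2 between the lines, and of all genes 592, 475, 519 and 404. Without the filter on RPKM, 3147 of all genes passed over both lines. Leaving out 1 library at a time gave 9 to 20 genes over both lines, 10 to 19 in line 1, 9 to 19 in line 2 and 7 to 13 between the lines; of all genes it gave 348 to 3570, 436 to 3028, 408 to 3738 and 772 to 2407. The lowest of these counts against the control came without the SMARTer control library, and the lowest between the lines without the KAPA library of line 2. The library left alone in its group is then assumed to vary like the others, and such a fit has fewer degrees of freedom. DESeq2 size factors or library totals in place of TMM, DESeq2, limma and a filter at 1 RPKM kept each count of these genes within 1.5 times. In the ARID1A+/- comparison, 6 genes passed 2-fold with TMM and 7 against the mean of both controls. Genes with few counts in a group (DCN, TNC, BGN, LOXL1 and those under the filter) limit the precision.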
